A study of Mus musculus with 29 samples.

Results

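The nuclear-encoded genes of oxidative phosphorylation were examined in sorted brain microglia of C57BL/6J males, in 29 bulk RNA-seq libraries of 6 groups. They were chosen by symbol alone: names that begin with Nduf, Uqcr, Atp5, Cox4i, Cox5, Cox6, Cox7 or Cox8, with Sdha, Sdhb, Sdhc, Sdhd and Cyc1. Of 112 matching symbols, 13 named as pseudogenes were dropped, and 7 were dropped because they had under 10 counts in more than 24 of the 29 libraries. This left 92 of the 36982 genes in the table. The 7 were Cox4i2, Cox6b2, Cox7a1, Cox7b2, Cox8b, Ndufa4l2 and Ndufb11b, and the highest count of any of them in a library was 15, for Cox4i2. Just inside the limit were Ndufa11b, at 10 counts or more in 5 libraries, and Ndufb4c, in 8. The 92 genes comprised 7 core subunits, 33 accessory subunits and 8 assembly factors of complex I, 4 genes of complex II, 9 of complex III, 14 of complex IV and 17 of the ATP synthase. All but Ndufb4c, 91 genes, passed the filter on low counts and were tested.

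Mice were injected intraperitoneally at 10 weeks of age and again 5 weeks later, and brains were taken 3 h after the last injection, at 15 weeks. An injection was either saline (P) or lipopolysaccharide at 1 mg/kg (L, or LPS), a component of bacterial outer membranes that macrophages sense. Gavage began 1 week after injection 1 and lasted 5 days, with vehicle (2-hydroxypropyl-beta-cyclodextrin) or with 169 mg/kg per day of BLZ945 (B), an inhibitor of the receptor CSF1R, on which microglia depend to survive. The BLZ945 was meant to remove microglia, and the cells profiled are those found weeks later. Saline both times gave PP (vehicle, n = 5) and PBP (BLZ945, n = 5). Saline and then LPS gave PL (vehicle, n = 4) and PBL (BLZ945, n = 5), and LPS both times gave LL (vehicle, n = 5) and LBL (BLZ945, n = 5). Microglia were sorted as live CD11b-high, CD45-intermediate, Ly6C-negative cells. Each library is labelled as 1 sample, and the labels say no more on how many mice it holds, so each p-value speaks only of the spread from library to library. The labels describe the design as a test of whether microglia that repopulate the brain keep a memory of the earlier LPS.

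Oxidative phosphorylation runs in the inner mitochondrial membrane. Complexes I and II take electrons from NADH and succinate, complex III passes them through cytochrome c to complex IV, which reduces oxygen, and the proton gradient that complexes I, III and IV build drives the ATP synthase. All complexes but II mix subunits from nuclear genes with subunits from the mitochondrial genome, and macrophages stimulated with LPS are known to shift from respiration towards glycolysis.

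Total counts per library lay between 5670450 and 12671476, and the 92 genes held 0.523% to 0.70% of them. The summed level of 10 microglia markers was between 33981 and 73362 CPM (the usual depth-scaled count, here over TMM-scaled library totals) in every library, and none of the 10 was at 0 throughout a group. Sorter and sorting day nearly followed the groups. PP, PL and 4 of the 5 PBP libraries were sorted on an Astrios instrument, and PBL, LL, LBL and PBP replicate 5 on an XDP. Mean RNA quality numbers were lowest in PBL (7.64, 7.4 to 7.9) and between 8.22 and 8.86 in the other groups, in which PBP replicate 5 (7.4) and PL replicate 3 (6.5) were the lowest of PBP and PL. In bulk RNA a lower level can come from less RNA per cell or from fewer cells of a type, and the 2 cannot be told apart. CPM is not scaled to gene length, so levels are compared between libraries and not between genes.

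Transcription of many of these genes is known to depend on NRF1, on GABPA and related ETS factors, on ESRRA and on YY1. The letters of their promoters were therefore read for these motifs. RefSeq promoter windows (build GRCm38.p6, 250 bases before to 50 after the start) were matched to 73 of the 92 genes. The letters GCGCA, any base, GCGC (NRF1) were searched on both strands, as all motifs were. They stood in the windows of 26.0% of the matched genes and of 5.19% of all 27025 genes with a RefSeq window. AANATGGCG (YY1) stood in 15.1% against 2.76%, ACTTCCGG (ETS factors) in 6.85% against 4.31% and TGACCTTG (ESRRA) in 5.48% against 1.76%, and at least 1 of the 4 in 46.6% against 12.8%. These are shares of letters and not sites of binding. The 27025 genes were not limited to those expressed here, and the base composition of the promoters was not matched. The 250 bases before the start are shown for 4 genes with low levels after BLZ945 that hold such letters, all on the minus strand of GRCm38.p6. Each is written 5′ to 3′, with capitals for the matched letters on either strand (NRF1 in Ndufs6, Ndufa8 and Sdhd, ETS in Uqcr11).
Ndufs6 (chr13:73328483-73328732): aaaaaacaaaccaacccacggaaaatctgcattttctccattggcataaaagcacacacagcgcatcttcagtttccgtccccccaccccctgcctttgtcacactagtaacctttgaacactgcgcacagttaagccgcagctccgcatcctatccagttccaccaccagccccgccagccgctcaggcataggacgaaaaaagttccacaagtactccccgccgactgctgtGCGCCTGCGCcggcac
Ndufa8 (chr2:36049339-36049588): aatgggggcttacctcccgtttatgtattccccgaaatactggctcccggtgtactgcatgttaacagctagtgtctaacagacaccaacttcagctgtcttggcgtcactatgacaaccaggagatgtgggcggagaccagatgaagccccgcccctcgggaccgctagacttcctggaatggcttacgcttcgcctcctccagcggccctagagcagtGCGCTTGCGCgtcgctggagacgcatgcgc
Sdhd (chr9:50603850-50604099): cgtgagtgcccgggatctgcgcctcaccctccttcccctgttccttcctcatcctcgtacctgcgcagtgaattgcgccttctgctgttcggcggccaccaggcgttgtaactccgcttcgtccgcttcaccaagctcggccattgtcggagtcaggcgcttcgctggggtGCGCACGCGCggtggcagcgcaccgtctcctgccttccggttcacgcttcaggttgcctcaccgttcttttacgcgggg
Uqcr11 (chr10:80406822-80407071): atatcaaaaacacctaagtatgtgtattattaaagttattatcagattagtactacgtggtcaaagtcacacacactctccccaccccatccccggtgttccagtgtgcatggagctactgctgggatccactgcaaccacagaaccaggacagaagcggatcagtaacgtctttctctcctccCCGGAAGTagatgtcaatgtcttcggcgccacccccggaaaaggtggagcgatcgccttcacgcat

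The mean log2 CPM of the 91 tested genes was lower in each BLZ945 group than in its vehicle group. It was 5.50 ± 0.04 in PP (SD, n = 5) and 5.35 ± 0.15 in PBP, 5.50 ± 0.14 in PL (n = 4) and 5.29 ± 0.08 in PBL, and 5.49 ± 0.03 in LL and 5.24 ± 0.05 in LBL. The libraries of LL (5.44 to 5.52) and LBL (5.15 to 5.29) did not overlap. Those of PP (5.45 to 5.54) and PBP (5.18 to 5.53) did, as did those of PL (5.30 to 5.63) and PBL (5.19 to 5.39). The 3 vehicle groups lay within 0.01 of each other, whether or not LPS had been given.

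**Figure D1:**
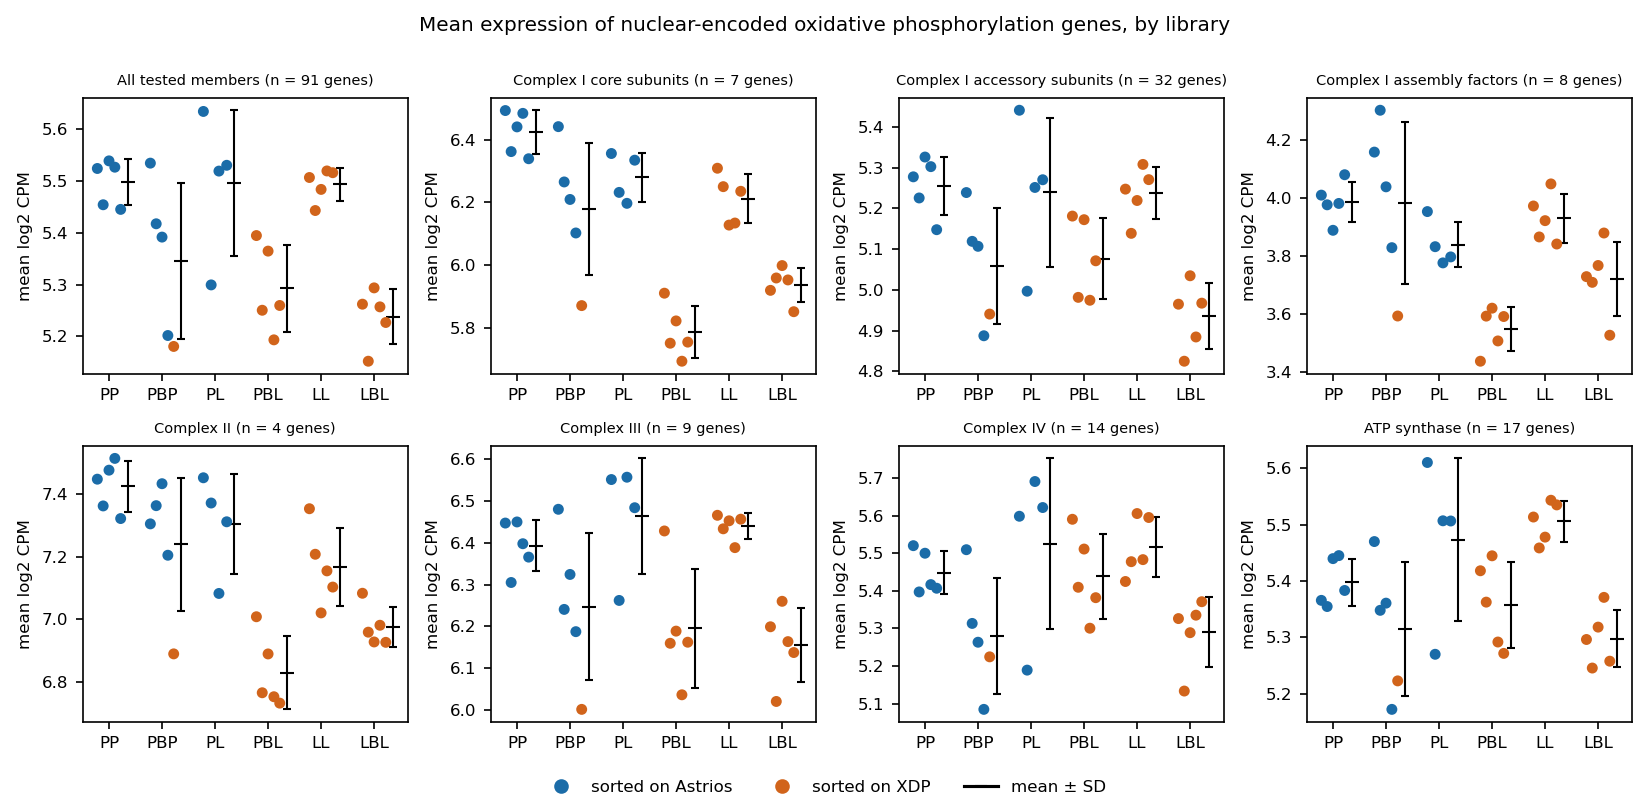
Mean log2 CPM (y axis) of the tested genes, together and by role, in each library (point, coloured by sorter) of the 6 groups (x axis), with mean ± SD. All LBL libraries lie below all LL libraries for the 91 genes together (5.15 to 5.29 against 5.44 to 5.52), while PBP and PP overlap.

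The BLZ945 comparisons asked how the cells found after depletion differed from never-depleted microglia. Most of the 91 genes had lower values after BLZ945 under all 3 injection schedules, by small amounts. The log2 fold change was below 0 for 81 genes in saline-only mice (44.3% of all 16632 genes tested were below 0), 80 after a first LPS (48.2%) and 85 after repeated LPS (47.4%). The median log2 fold change of the 91 was -0.16, -0.22 and -0.28, against 0.04, 0.02 and 0.02 over all genes. Below 0 in all 3 were 72 of the 91 (79.1%), against 22.4% of all genes. The 3 comparisons share no library. Only Atp5g2, Cox7c and Ndufb2 were above 0 in all 3.

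**Figure D2:**
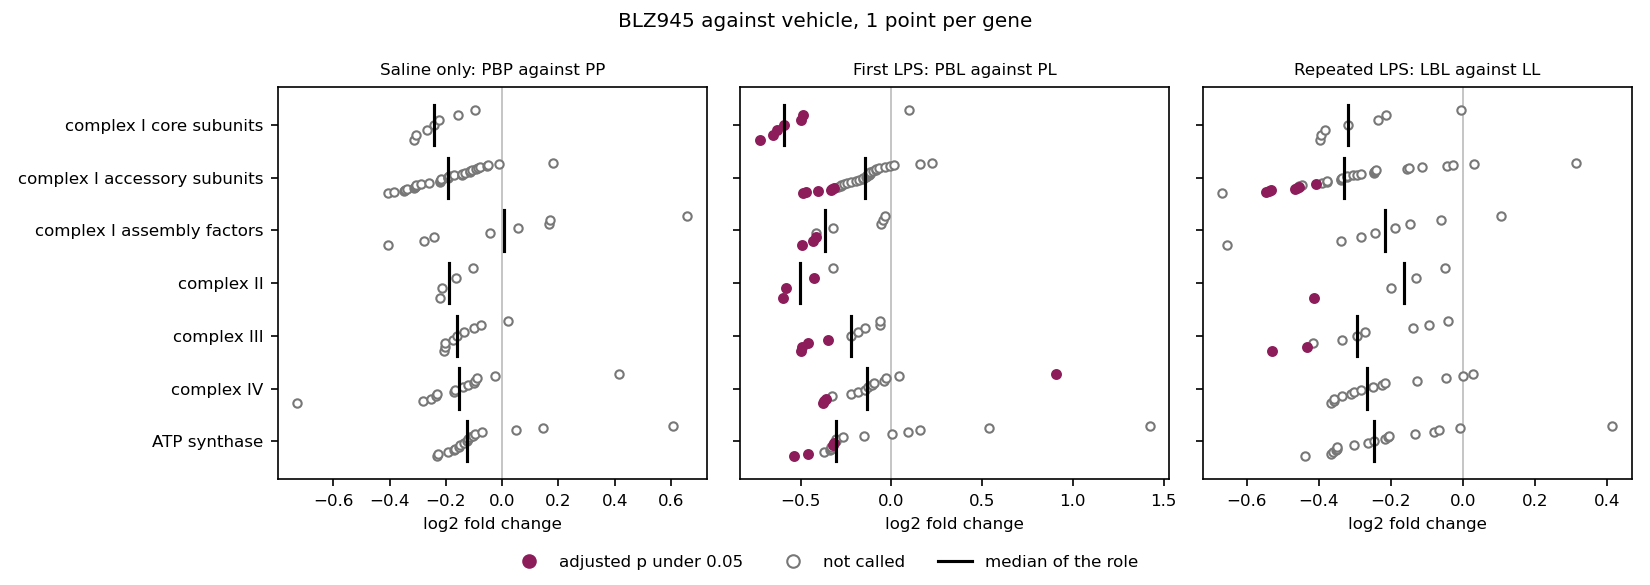
Log2 fold change (x axis) of each tested gene after BLZ945 against vehicle, by role (y axis), in saline-only mice, after a first LPS and after repeated LPS; filled points passed adjusted p under 0.05 and bars mark medians. Most points lie left of 0 in all 3 panels, with 0, 29 and 10 genes called lower.

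After repeated LPS, 10 of the 91 genes were lower in LBL than in LL and none was higher, with edgeR's quasi-likelihood test and Benjamini-Hochberg adjustment over all genes. Of all genes 1.21% were called, 0.722% lower and 0.487% higher. Accessory subunits of complex I, which surround the catalytic core and stabilise it, made up 7 of the 10: Ndufa2, Ndufa3, Ndufa8, Ndufa13, Ndufb6, Ndufb7 and Ndufs6. The others were Uqcr11 and Uqcrq, small subunits of complex III, and Sdhb, the iron-sulfur subunit of complex II. No core subunit or assembly factor of complex I and no gene of complex IV or the ATP synthase was called, with medians of -0.32, -0.21, -0.27 and -0.25.

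Ndufa2 (ENSMUSG00000014294, chromosome 18), an accessory subunit of the arm that takes up NADH, was at 106, 110.4, 102, 117 and 120.3 CPM in LL and at 71.3, 78.1, 82.2, 68.9 and 82.3 in LBL. Every LBL library lay below every LL library, and the log2 fold change was -0.54 (SE 0.11, adjusted p = 0.00515). Uqcr11 (ENSMUSG00000020163, chromosome 10) was at 44.5, 43.6, 50.8, 50.4 and 53.2 CPM in LL and at 28.7, 32.6, 36, 31.1 and 39.5 in LBL (log2 fold change -0.53, SE 0.11, adjusted p = 0.0119). Again the groups did not overlap. Ndufb6 (ENSMUSG00000071014, chromosome 4), in the membrane arm of complex I, was at 43.9, 50.6, 50.5, 57 and 50.7 CPM in LL and at 38.7, 37, 36.8, 30.1 and 30.5 in LBL (-0.55, SE 0.13, adjusted p = 0.0231). Ndufb7 fell by 0.47 on the log2 scale (SE 0.10, adjusted p = 0.0111) and Ndufs6 by 0.53 (SE 0.13, adjusted p = 0.0336). Ndufs6, whose promoter is shown above, binds a zinc ion in the finished complex and has a near copy in the table, Ndufs6b, with which it can share reads.

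All 5 LBL libraries lay below all 5 LL libraries for 28 of the 91 genes and above for none, against 3.03% and 1.32% of all genes. The groups were sorted on 1 instrument, 4 of 5 LBL libraries on day 1 and 4 of 5 LL libraries on day 2. Several calls lay near the threshold. The count of genes called lower was 3 without LL replicate 4, 5 without LBL replicate 2 and 6 without LBL replicate 1 or LL replicate 1, 3 or 5. Sdhb (141, 117, 133, 134 and 131 CPM in LBL against 200.2, 152, 173, 187 and 160.5 in LL, adjusted p = 0.05 when rounded, just under the threshold) was no longer called without any 1 of 9 libraries, LL replicate 2 being the exception (adjusted p 0.0529 to 0.163). The call of Ndufs6 was lost without LBL replicate 1, 2 or 4 or LL replicate 1, 3 or 4 (0.0621 to 0.0911), that of Ndufb6 without LBL replicate 5 or LL replicate 4 (0.0729 and 0.0843) and that of Ndufb7 without LL replicate 4 (0.0519). With sorting day as a term, 2 genes were called lower and the median was -0.28.

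**Figure D3:**
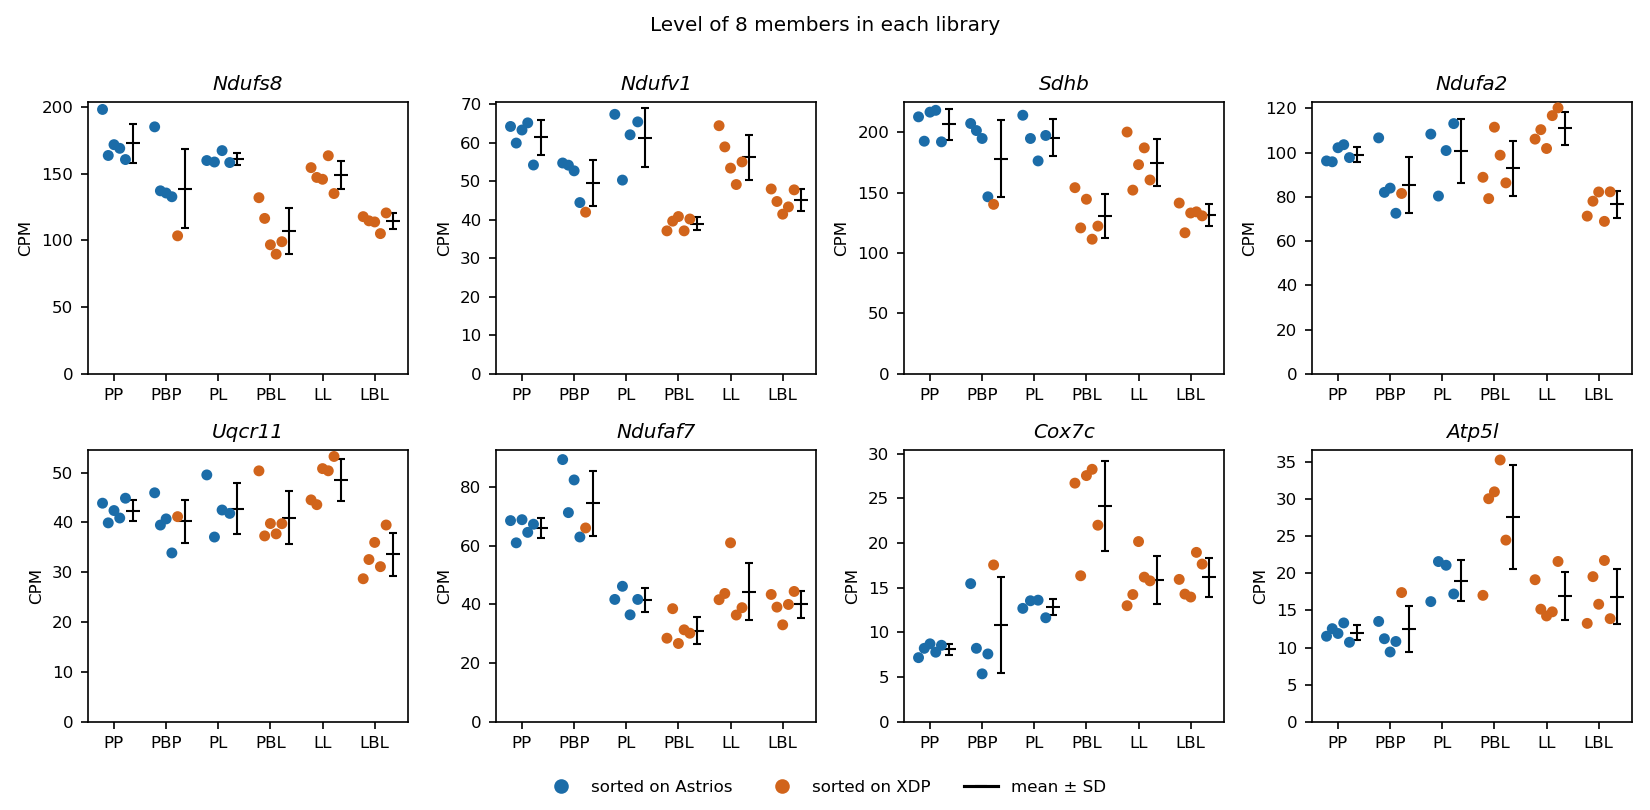
CPM (y axis, from 0) of 8 genes in each library (point, coloured by sorter) of the 6 groups (x axis), with mean ± SD. Ndufa2 and Uqcr11 are lower in every LBL than in every LL library, the means of Ndufs8, Ndufv1 and Sdhb are lowest in PBL, and Cox7c and Atp5l are highest in PBL.

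After a first LPS, 29 of the 91 genes were lower in PBL than in PL and 1 was higher, where 11.1% of all genes were called lower and 11% higher. The core of complex I had the lowest median of any role. Lower were 6 of its 7 subunits, with a median of -0.59 over the 7, and 3 of the 4 genes of complex II, with a median of -0.50. Of complex III 4 of 9 genes were lower, of the assembly factors 3 of 8, of the ATP synthase 4 of 17, of complex IV 3 of 14 and of the accessory subunits of complex I 6 of 32.

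Ndufv1 (ENSMUSG00000037916, chromosome 19), the subunit that binds NADH and flavin, was at 67.3, 50.3, 62 and 65.4 CPM in PL and at 37.1, 39.6, 40.8, 37.1 and 40.2 in PBL (log2 fold change -0.65, SE 0.11, adjusted p = 0.000304). Sdhd (ENSMUSG00000000171, chromosome 9), a membrane anchor of complex II, was at 183, 147, 150.2 and 144 CPM in PL and at 118, 91.5, 117, 91.4 and 97.9 in PBL (-0.60, SE 0.11, adjusted p = 0.000754). Every PBL library lay below every PL library in both genes. Ndufs3 fell by 0.63 and Ndufs8 by 0.59 on the log2 scale, and Sdhb by 0.58 (SE 0.17, 0.12 and 0.12). Ndufs1, the largest core subunit, stood at 0.10 on the log2 scale (SE 0.16, adjusted p = 0.694) and was not called in any comparison. The 1 gene that rose was Cox7c (ENSMUSG00000017778, chromosome 13), a small subunit of complex IV, at 12.7, 13.5, 13.6 and 11.6 CPM in PL and 26.7, 16.3, 27.5, 28.2 and 22 in PBL (0.91, SE 0.24, adjusted p = 0.00754). All PBL libraries lay above all PL libraries for it.

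All PBL libraries lay below all PL libraries for 19 genes and above for 2, against 6.13% and 10.1% of all genes. PL was sorted on the Astrios and PBL on the XDP, so treatment and sorter cannot be told apart in this comparison. With a sorter term, which only the group with libraries from both instruments informs and there only through PBP replicate 5, no gene was called lower, none higher, and the median was -0.04. The count of genes called lower was 16 without PL replicate 1, 17 without PL replicate 4 or PBL replicate 4 and 19 without PBL replicate 3. That of genes called higher was 2 without PBL replicate 1 or 5 or PL replicate 3. RNA quality was lower in PBL (mean 7.64) than in PL (8.22), and with it as a term 19 genes were called lower. Markers of other cells also moved. Of 12 neuron markers 10 were higher in PBL, with a summed level of 620 to 1072 CPM against 119 to 381 in PL. All 7 tested neutrophil markers of 10 in the table were higher, with 125 to 476 CPM against 1.24 to 21.1 in PL, where Ly6g and Elane had no count. Of 7 tested markers of border-associated macrophages 6 were lower (18 to 35.9 CPM against 89.5 to 155). Of 10 microglia markers 6 were lower (33981 to 48424 CPM against 47280 to 54770), and of 11 tested astrocyte markers 8 were higher and 1 lower (710 to 939 against 757 to 1026 CPM in sum). Higher were also 5 of 8 tested oligodendrocyte markers, with 1 lower (165 to 319 against 130.1 to 166 CPM; Olig2 and Sox10 had no count in PL), and 3 of 5 tested red blood cell markers (5.68 to 155 against 6.48 to 19.8 CPM). The part of these cells in the result was not tested.

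In saline-only mice no gene of the 91 was called in either direction between PBP and PP with edgeR (smallest adjusted p 0.14), where 0.289% of all genes were called higher and 0.241% lower. At an unadjusted p under 0.05 there were 16 genes, against 12% of all genes, and DESeq2 and limma voom also called none. Without PBP replicate 1, 1 gene was lower. The lowest role median was that of the core of complex I, -0.24, with all 7 subunits below 0. Assembly factors had a median of 0.01. Ndufv1 was at 64.2, 59.9, 63.3, 65.1 and 54.2 CPM in PP and at 54.7, 54.1, 52.7, 44.4 and 41.9 in PBP, overlapping only in the lowest PP and the highest PBP library (-0.31, SE 0.10, adjusted p = 0.194). Groups did not overlap for 1 gene above and 2 below, near the 1.14% and 1.35% of all genes. Of 7 tested border-associated macrophage markers 1 was lower, with a summed level of 25.5 to 46.8 CPM in PBP and 53.9 to 117 in PP, and of 12 neuron markers 1 was higher (59.4 to 707 against 43.1 to 204 CPM). All PP libraries were sorted on day 5 and no PBP library was, so treatment and sorting day cannot be told apart within these groups. With a sorting day term, informed by PL libraries from days 4 and 5, the median was -0.12.

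As 1 contrast, chosen after the values were seen, the mean of the 3 BLZ945 effects called 53 of the 91 genes lower and 2 higher, against 11.9% and 13.5% of all genes. The 2 higher were Atp5g2 and Cox7c, and without LBL replicate 4 Atp5g2 was not called (adjusted p = 0.0564). Lower were 6 of 7 core subunits, 4 of 4 genes of complex II, 7 of 9 of complex III, 10 of 17 of the ATP synthase, 18 of 32 accessory subunits, 6 of 14 of complex IV and 2 of 8 assembly factors. Other lists moved in this contrast too: 38 of 77 mitochondrial ribosome genes (49.4%), 8 of 20 TCA cycle genes (40%) and 12 of 36 other assembly factors (33.3%) were lower. Of 85 cytosolic ribosome genes 7 were lower (8.24%), and 0 of 8 mitochondrially encoded subunits were called. With a sorter or a sorting day term none of the 91 was called, and their median went from -0.24 to -0.14 or -0.12. The mean of 2 effects that each lie within 1 sorter, PBP without replicate 5 against PP and LBL against LL, called 20 genes lower and none higher, against 2.26% and 1.45% of all genes. Of the 20, 16 were subunits of complex I, among them Ndufs6 (-0.42, SE 0.09, adjusted p = 0.00669) and Ndufb6 (-0.41, SE 0.09, adjusted p = 0.00642). The others were Uqcr11, Uqcrq, Cox6b1 and Sdhb, and 83 of the 91 genes lay below 0. Within a sorter, sorting day still followed treatment: PBP replicates 1 to 4 were all from day 4 and PP from day 5, LBL mostly from day 1 and LL mostly from day 2. Within these libraries treatment and sorting day cannot be told apart in the first effect and nearly coincide in the other. Among the 3 separate comparisons, 36 genes were called lower in at least 1 (11.3% of all genes), and Ndufa8, Ndufb6 and Sdhb in 2 (0.613%). Ndufa8 (ENSMUSG00000026895, chromosome 2), an accessory subunit of complex I, was at 149, 138, 131 and 137 CPM in PL and at 109, 94.9, 100.1, 90.2 and 107 in PBL (-0.47, SE 0.11, adjusted p = 0.0036). It was at 147, 135, 125, 139.6 and 147 CPM in LL and at 111, 98.2, 99.4, 105 and 109.6 in LBL (-0.41, SE 0.10, adjusted p = 0.0382), and neither pair of groups overlapped. In saline-only mice its groups did overlap (-0.14, SE 0.10, adjusted p = 0.636). Markers of other cells moved with the mean of the 3 effects: 11 of 12 neuron, 7 of 11 astrocyte (1 lower), 3 of 8 oligodendrocyte and 3 of 5 red blood cell markers were higher. All 7 markers of border-associated macrophages were lower, as were 5 of 10 microglia markers (1 higher), and no neutrophil marker of 7 was called. In LBL against LL alone, 6 of 7 border-associated macrophage markers were lower (11.8 to 24.6 against 55.4 to 94.2 CPM in sum) and 0 of 12 neuron markers were called (411 to 1003 against 259 to 1136 CPM). The part of these cells was not tested.

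Subunits with well-known catalytic roles differed in how far they moved. In PBL against PL, Uqcrc1, a core subunit of complex III, had a log2 fold change of -0.50 (SE 0.13) and Uqcrfs1, the Rieske iron-sulfur protein, -0.46 (SE 0.12), and both fell. Cyc1, which encodes cytochrome c1 of the same complex, did not pass (-0.18, SE 0.12, adjusted p = 0.29). In complex IV, Cox5a fell by 0.36 (SE 0.13, adjusted p = 0.0464), a call lost without any 1 of 8 libraries, PBL replicate 1 being the exception (adjusted p 0.0663 to 0.119). Cox4i1 was not called (-0.04, SE 0.10) and stood at 263 ± 35.5 CPM in PL and 255 ± 27.9 in PBL. The catalytic subunits of the ATP synthase fell, Atp5a1 by 0.46 (SE 0.11, adjusted p = 0.00323) and Atp5b by 0.32 (SE 0.09, adjusted p = 0.0138), as did Atp5c1 of the central stalk, by 0.54 (SE 0.13). Sdha, the flavoprotein of complex II, fell by 0.42 (SE 0.12, adjusted p = 0.0142), not called without PL replicate 1 or 2 (adjusted p 0.0769 to 0.08). None of these 9 genes passed in LBL against LL or PBP against PP.

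Several subunits exist in isoforms that tissues use differently. Of such pairs only the widely expressed form was well covered: Cox4i1, Cox6b1, Cox7a2, Cox8a and Ndufa4 were kept, and Cox4i2, Cox6b2, Cox7a1, Cox8b and Ndufa4l2 fell under the count limit. Cox6a2, the heart and skeletal muscle form, was kept at 3.51 ± 0.863 CPM in PP and 2.1 ± 0.612 in PBP, and Cox6a1 at 155 ± 9.86 and 142 ± 11.6, with no call for either in any of the 3 separate comparisons. Cox6b1 fell by 0.37 (SE 0.12, adjusted p = 0.0231) and Cox7a2 by 0.38 (SE 0.13, adjusted p = 0.0319) in PBL against PL, whereas Cox7a2l was not called (-0.15, SE 0.13). Calls were lost without any 1 of 5 libraries for Cox6b1 (0.0502 to 0.111) and of 6 for Cox7a2 (0.0574 to 0.171). Atp5g1, Atp5g2 and Atp5g3 encode the same membrane ring subunit of the ATP synthase. Atp5g2 was at 0.622, 0.713, 0.473 and 0.397 CPM in PL and at 1.43, 1.95, 2.38, 0.931 and 0.82 in PBL, just outside the threshold (1.43, SE 0.53, adjusted p = 0.0505), with 3 to 22 counts per library. Atp5g1 had a value of -0.34 (SE 0.16, adjusted p = 0.134) and Atp5g3 of 0.00 (SE 0.12).

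A first LPS in vehicle mice moved few of these genes. In PL against PP 5 of the 91 were higher and 2 lower, where 26.2% of all genes were called, 14.2% higher and 11.9% lower. Below 0 were 50 of the 91, against 50.1% of all genes, and the median was -0.03 (0.00 over all genes). The 2 that fell are assembly factors of complex I. Ndufaf7 (ENSMUSG00000024082, chromosome 17), a methyltransferase, was at 68.5, 61, 68.8, 64.5 and 67.3 CPM in PP and at 41.7, 46.2, 36.5 and 41.7 in PL (-0.67, SE 0.14, adjusted p = 0.000279). Ndufaf1 was at 28.5, 26.8, 27.6, 32.5 and 17.8 CPM in PP and at 15.1, 20.1, 17.8 and 17.6 in PL (-0.60, SE 0.18, adjusted p = 0.0104). The groups did not overlap for Ndufaf7 and overlapped in 1 PP library for Ndufaf1. Those that rose were Cox7c (0.67, SE 0.24), Ndufb2 (0.66, SE 0.19) and Atp5l (0.66, SE 0.20), with Ndufb1 (0.57, SE 0.15) and the assembly factor Ndufaf4 (0.55, SE 0.16). Without PL replicate 1, 3 rose, Ndufb2 not among them (adjusted p = 0.105), and the call of Cox7c was lost without any 1 of 6 libraries (0.0546 to 0.0847). Of 10 microglia markers 7 were lower in PL (47280 to 54770 CPM in sum against 61411 to 73362). All PL libraries lay above all PP libraries for 3 genes and below for 2, against 11.5% and 10.4% of all genes.

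After BLZ945, a first LPS was followed by 22 lower and 7 higher genes in PBL against PBP, where 21.5% of all genes were called in each direction. The 22 lower genes were 6 of 7 core subunits of complex I (median -0.43), 4 of 8 assembly factors (-0.44), 3 of 4 genes of complex II (-0.40), 5 of 32 accessory subunits, 2 of 9 genes of complex III, 2 of 17 of the ATP synthase and none of 14 of complex IV. Below 0 were 52 of the 91 genes (49.7% of all genes), and the median was -0.04 against 0.01 over all genes. Groups did not overlap for 4 genes above and 6 below, against 12.5% and 11.6% of all genes. Ndufaf7 was at 89.3, 71.2, 82.4, 62.9 and 66 CPM in PBP and at 28.5, 38.5, 26.7, 31.3 and 30.2 in PBL (-1.26, SE 0.13, adjusted p = 1.19e-09). The groups stood far apart. Ndufaf1 fell by 0.81 (SE 0.17), Sdhd by 0.68 (SE 0.11) and Ndufaf5, which hydroxylates Ndufs7 and was at a low 2.15 ± 1.08 CPM in PBL, by 1.14 (SE 0.43). The call of Ndufaf5 was lost without any 1 of 5 libraries (0.0515 to 0.0832).

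The genes that rose with LPS after BLZ945 were Cox7c (1.16, SE 0.22), Atp5l (1.15, SE 0.19), Ndufb2 (0.70, SE 0.18), Ndufb1 (0.64, SE 0.15), Ndufaf4 (0.45, SE 0.15), Atp5e (0.33, SE 0.13) and Uqcrq (0.29, SE 0.11). Atp5l, the subunit g that lies where ATP synthase dimers meet, was at 13.5, 11.2, 9.41, 10.8 and 17.4 CPM in PBP and at 17, 30, 30.9, 35.2 and 24.5 in PBL. The highest PBP library, replicate 5, overlapped the lowest PBL library. PBP was sorted on the Astrios except for replicate 5, and PBL on the XDP. With a sorter term 1 gene was called lower, none higher and the median was 0.15. The count of lower genes was 13 without PBP replicate 1 and 14 without PBL replicate 4, and that of higher genes 4 without PBP replicate 4. Of 10 microglia markers 9 were lower in PBL (33981 to 48424 CPM in sum against 50357 to 69531). Of 12 neuron markers 8 were higher in PBL (620 to 1072 against 59.4 to 707 CPM), as were all 7 tested neutrophil markers (125 to 476 against 0 to 6.52 CPM, with Ly6g, Lcn2, Mmp8 and Elane at no count in PBP). Higher were also 8 of 11 astrocyte markers (710 to 939 against 392 to 482 CPM) and 4 of 5 red blood cell markers (5.68 to 155 against 0.134 to 75.5 CPM). Of oligodendrocyte markers 3 of 8 were higher and 1 lower (165 to 319 against 159.8 to 282 CPM), and of monocyte markers 3 of 6 higher and 1 lower (25.8 to 67.8 against 23.7 to 34.5 CPM, Ly6c2 at no count in PBP). Of 7 border-associated macrophage markers 2 were lower (18 to 35.9 against 25.5 to 46.8 CPM). The part of these cells was not tested. RNA quality was lower in PBL (mean 7.64) than in PBP (8.6), and with it as a term 4 genes were called higher and 13 lower.

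**Figure D4:**
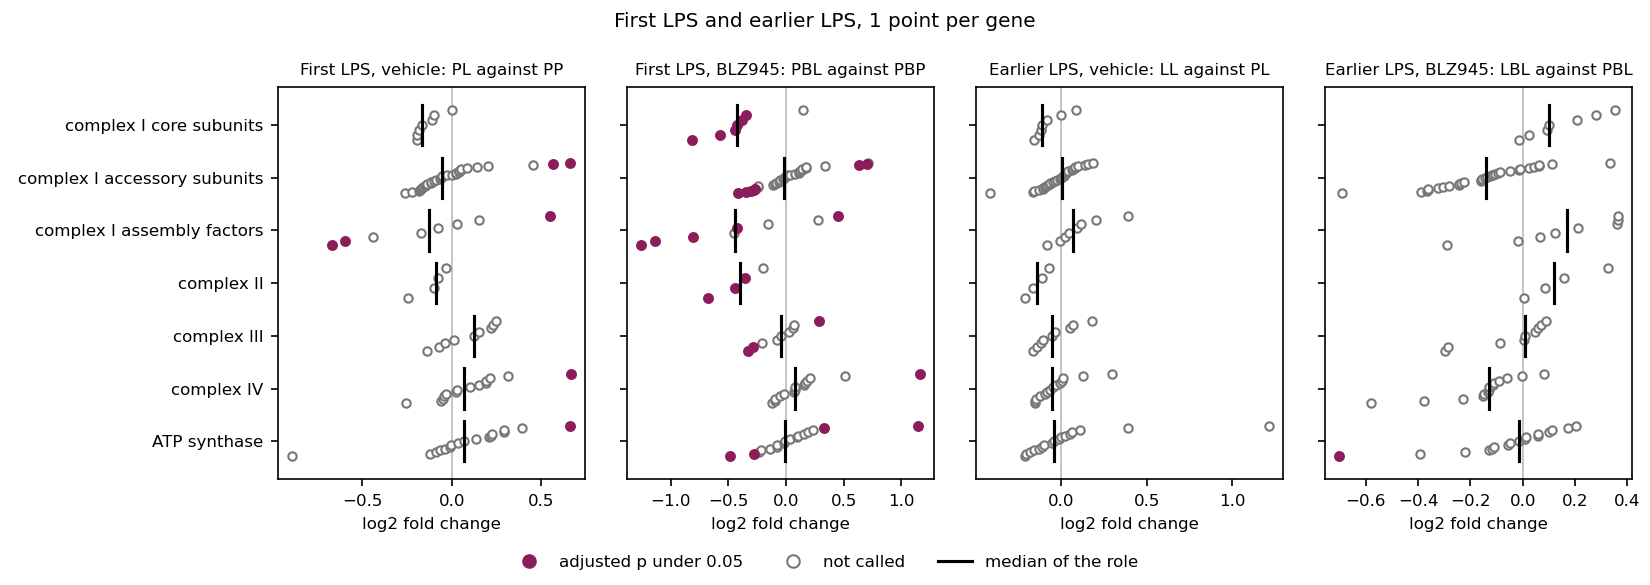
Log2 fold change (x axis, a scale for each panel) of each tested gene, by role (y axis), for a first LPS against saline and for earlier LPS against none, in vehicle and BLZ945 mice; filled points passed adjusted p under 0.05 and bars mark medians. Called genes number 7 and 29 in the first-LPS panels and 0 and 1 in the earlier-LPS panels.

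An LPS injection 5 weeks earlier was followed by little change. In LL against PL no gene of the 91 was called with edgeR (smallest adjusted p 0.24), where 2.78% of all genes were called, 0.752% higher and 2.03% lower. Below 0 were 53 genes (48.6% of all), and groups did not overlap for 1 above and 2 below (2.69% and 2.84%). At an unadjusted p under 0.05 there were 3, against 15.7% of all genes, and DESeq2 and limma voom called none. In LBL against PBL 1 gene, Atp5l, was lower (-0.70, SE 0.19, adjusted p = 0.018), where 4% of all genes were, and none was higher (2.74%, and 6.74% in either direction). Below 0 were 54 genes (48.6% of all), and groups did not overlap for 2 above and 2 below (2.66% and 4.44%). Its levels in LBL were 13.3, 19.5, 15.8, 21.7 and 13.9 CPM and overlapped those of PBL, and the call was lost without PBL replicate 3 or 4 or LBL replicate 1 (0.051 to 0.0797). Without PBL replicate 1, 2 genes were higher. All 7 tested neutrophil markers were lower in LBL (0.680 to 4.73 CPM in sum) than in PBL (125 to 476), and their part was not tested. PL and LL were sorted on different instruments, so earlier LPS and sorter cannot be told apart there. PBL was sorted on day 3 and LBL on days 1 and 2, so in LBL against PBL earlier LPS and sorting day cannot be told apart. Mean RNA quality was 7.64 in PBL and 8.36 in LBL.

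Whether BLZ945 altered these responses was tested as a difference of differences. For the first LPS no gene of the 91 passed, nor did any of all genes (0%), and the median difference was -0.10. At an unadjusted p under 0.05 there were 10, against 12.7% of all genes. Without PBP replicate 5, 3 genes were lower. For the earlier LPS none passed, against 0.0241% of all genes, and the median was -0.03, with 10 at an unadjusted p under 0.05 (14.5%). A difference in how LPS acted on these genes in BLZ945 and vehicle mice was thus not detected in either test. For the first LPS, role medians ran from -0.35 (complex II) to 0.04 (complex I accessory subunits), with -0.28 for the complex I core. Both tests hold the difference between sorters. In the first, PBL was sorted on the XDP, and PP, PL and PBP except replicate 5 on the Astrios. In the second, PL was sorted on the Astrios and the other groups on the XDP. An altered LPS response and a sorter effect cannot be told apart in either test, so an altered response is not excluded.

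The other genes of the pathway and of mitochondrial biogenesis were read as lists chosen by name. Of the 13 subunit genes of the mitochondrial genome, 8 were tested, and called genes were found mainly in the LPS comparisons. The genes mt-Nd3, mt-Nd4l, mt-Co2, mt-Co3 and mt-Atp8 did not pass the filter on low counts, so the medians leave them out. The values of mt-Atp6 were imprecise (SE 1.77 in PL against PP and 1.56 in PBL against PBP). Of the 8, 5 rose in PL against PP (median 0.41, 14.2% of all genes higher) and 7 in PBL against PBP (0.62, 21.5%). Lower were 3 in LL against PL (-0.51, 2.03% of all genes lower) and 7 in LBL against PBL (-0.68, 4%). The mean log2 CPM of the 8 in PL (7.22 to 8.35) overlapped that in PP (7.44 to 7.85) and in LL (7.33 to 7.93). The mean in PBL (7.86 to 8.69) did not overlap that in PBP (7.18 to 7.84) or LBL (7.18 to 7.72). The limits of sorter, sorting day and RNA quality given above for PBL against PBP, LL against PL and LBL against PBL hold here too. mt-Nd1, a core subunit of complex I, was at 669 ± 38.5 CPM in PP, 882 ± 243 in PL and 645 ± 19.6 in LL, and at 659 ± 134 in PBP, 1142 ± 138 in PBL and 674 ± 96.4 in LBL. In the 3 BLZ945 comparisons, 1 of 8 was called, mt-Co1 in PBL against PL (0.37, SE 0.13). Of 36 assembly factors with other names 7 (19.4%) were lower in PBL against PL, where 11.1% of all genes were. Examples were Tmem70 (-0.68, SE 0.16) of ATP synthase assembly and Coa3 (-0.55, SE 0.15) of complex IV assembly. None of the 36 was called in LBL against LL or PBP against PP. Of 77 mitochondrial ribosome genes 28 (36.4%) were lower in PBL against PL and 1 (1.3%) in LBL against LL, against 11.1% and 0.722% of all genes. Of 85 cytosolic ribosome genes 34 rose and none fell in PL against PP, where 14.2% of all genes rose and 11.9% fell. In PBL against PBP 41 of the 85 rose and 1 fell, against 21.5% of all genes in each direction. Of 14 genes of electron carriers and coenzyme Q synthesis, 2 were higher and 2 lower in PL against PP. In PBL against PBP 3 of the 14 were higher and 2 lower. Among the 14, Cycs, which encodes cytochrome c, rose with a first LPS in vehicle mice (1.01, SE 0.31). Cycs was not called with a first LPS in BLZ945 mice (0.001, SE 0.31), and was lower in PBL than in PL (-0.87, SE 0.31).

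In the TCA cycle list Idh2, the mitochondrial NADP-dependent isocitrate dehydrogenase, was lower after BLZ945 in all 3 comparisons. It was at 164 ± 24.7 CPM in PP and 101 ± 15.5 in PBP (-0.70, SE 0.14, adjusted p = 0.00717), at 116 ± 15.4 in PL and 53.3 ± 11.3 in PBL (-1.12, SE 0.15) and at 118 ± 20.1 in LL and 67.4 ± 8.8 in LBL (-0.81, SE 0.14). No other gene of the 20 tested was called in PBP against PP or LBL against LL. In PBL against PL 7 with Idh2 were lower (35%, against 11.1% of all genes), among them Mdh2 (-0.52, SE 0.10) and Sucla2 (-0.71, SE 0.17).

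**Figure D5:**
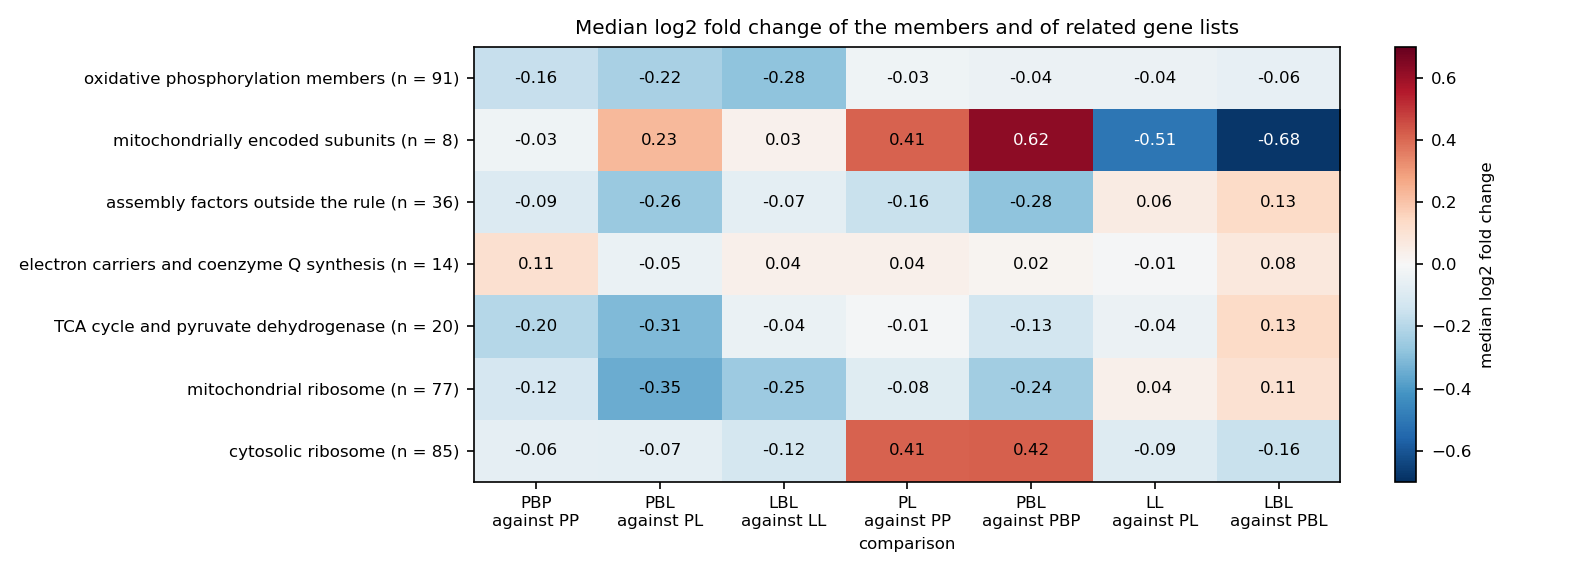
Median log2 fold change (colour and printed value) of the 91 tested genes and of related lists (rows) in the 7 pairwise comparisons (columns). The 91 genes have their lowest medians in the 3 BLZ945 columns (-0.16, -0.22 and -0.28), the mitochondrially encoded subunits their highest with a first LPS (0.41 and 0.62).

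Among 12 regulators of mitochondrial biogenesis, Pprc1, a coactivator related to PGC-1, rose with a first LPS in vehicle mice (1.48, SE 0.14, adjusted p = 2.18e-10) and in BLZ945 mice (1.73, SE 0.14). Yy1 rose in PL against PP (0.43, SE 0.12) and Gabpa fell in PBL against PBP (-0.60, SE 0.15). After BLZ945, Gabpa (-0.53, SE 0.16), Gabpb1 (-0.50, SE 0.16), Yy1 (-0.34, SE 0.13) and Tfam (-0.61, SE 0.19), which packages and transcribes mitochondrial DNA, were lower and Ppargc1b higher (1.35, SE 0.43) in PBL against PL. No regulator was called in PBP against PP or LBL against LL. Nrf1, Esrra, Ppargc1a, Polrmt, Tfb1m and Tfb2m were not called in any of these 5 comparisons.

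Genes that limit or replace parts of the chain responded to LPS. Acod1, which makes the succinate dehydrogenase inhibitor itaconate, had no count in any PBP library, an upper limit of 0.0719 CPM at 3 counts over the group, and was at 14.7 ± 6.06 CPM in PBL, at least 205-fold higher (adjusted p = 5.41e-10). Its 5 PP libraries held 3 counts in all, and PL stood at 8.23 ± 3.23 CPM, LL at 1.64 ± 1.23 and LBL at 1.96 ± 1.27. Ucp2, an inner membrane carrier, rose from 268 ± 24.1 CPM in PP to 612 ± 95.8 in PL (1.19, SE 0.11), and was lower in PBL (421 ± 25) than in PL (-0.54, SE 0.10). Pdk1, which switches off pyruvate dehydrogenase, fell with a first LPS (-0.78, SE 0.15, in vehicle and -1.10, SE 0.14, in BLZ945 mice). Bnip3, a receptor for the removal of mitochondria, was lower in PBL than in PL (-0.63, SE 0.16) and than in PBP (-0.66, SE 0.16), and Hif1a higher in PBL than in PBP (0.29, SE 0.12). Nos2, AA467197 and Aox1 did not pass the filter on low counts.

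The 91 genes varied less between replicates than genes at large, with a median biological coefficient of variation of 0.135 against 0.251. As a description over the 29 libraries, which share groups, sorter and depth, the Pearson correlation of a gene with the mean of the others was highest for Cox6b1 (0.911) and lowest for Atp5g2 (-0.41), and it was also below 0 for Cox7c (-0.38), Atp5l (-0.36) and Ndufb2 (-0.27). Among the genes outside the set most like its mean, of 16541 compared, were Tmsb4x (0.917), Psmb2 (0.895), Vamp8 (0.892) and Psmb1 (0.884).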

How the data were processed

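The deposited table holds raw counts per gene, made by the authors from polyA RNA of sorted microglia (low-input kit, NovaSeq6000, per the labels' protocols). Per the submitters' processing notes, cutadapt 2.10, FastQC 0.11.9, TopHat, SAMtools 1.10, Picard 2.13.2, HTSeq 0.11.0 and the build GRCm39 were used; the sources used here name neither annotation release nor strand setting. If strand was ignored, reads of overlapping genes cannot be told apart, and the near copies Ndufs6 and Ndufs6b, Ndufa11 and Ndufa11b, Ndufb4 and Ndufb4c, and Cox6c and Cox6c2 can share reads. The labels also carry the RNA quality score, the sorter and the sorting day, as deposited. Total counts were 5670450 to 12671476 (median 7597841), and replicate pairs differed by more than counting error (chi-square per degree of freedom 5.47 to 32.5 over 56 pairs).

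Genes were filtered with filterByExpr and scaled by TMM in edgeR 4.0.16 (R 4.3.3). One quasi-likelihood fit over all 29 libraries, with a coefficient per group and 23 residual degrees of freedom, gave every comparison, with Benjamini-Hochberg adjustment over 16632 genes and calls at adjusted p under 0.05. SE is the log2 fold change divided by the square root of F. List means used log2 CPM with a prior count of 2. The steps were tested on simulated data.

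Alternatives were RLE scaling, library totals alone, no filter, a replicate block, terms for sorter, sorting day and RNA quality, DESeq2 1.42.0, limma 3.58.1 voom, a fit of the compared groups alone and leaving out each library. Named were the 5 called genes with the largest change in each direction per comparison, 12 catalytic subunits, isoform pairs, regulators and inhibitors, and up to 4 called genes of each other list; 2 genes that the rules name are not reported here. The members and the lists were chosen with earlier results of these data known. Promoters came from RefSeq (GRCm38.p6), matched by symbol.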

Additional observations from a re-analysis of the deposited data

Results flagged for a closer look

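In 9 of 276 gene and group sets checked, 1 library stood far from the others of its group, where chance gives about 1 in 20. Ndufs1 was at 53.4 CPM in LBL replicate 5, below the 68.2 to 72.2 of the other LBL libraries. Cox7a2 was at 63.1 CPM in LL replicate 5, above the 55.3 to 56.7 of the other LL libraries. Atp5g3 was at 69.7 CPM in LBL replicate 1, above the 52.3 to 57 of the other LBL libraries. Sdhd was at 183 CPM in PL replicate 1, above the 144 to 150 of the other PL libraries. Ndufs8 was at 167 CPM in PL replicate 3, above the 158 to 160 of the other PL libraries. Uqcr11 was at 50.4 CPM in PBL replicate 1, above the 37.3 to 39.8 of the other PBL libraries. Ndufb7 was at 45.1 CPM in LBL replicate 2, below the 52.5 to 53.8 of the other LBL libraries. Ndufb1 was at 22.5 CPM in PL replicate 2, below the 37.3 to 40.1 of the other PL libraries. Ndufaf5 was at 1.45 CPM in LBL replicate 5, below the 2.95 to 3.31 of the other LBL libraries. LBL replicate 5 stood low for both Ndufs1 and Ndufaf5. It was the only LBL library sorted on day 2 and had the lowest RNA quality number of LBL (7.6). LL replicate 5 was the only LL library sorted on day 1, and PL replicate 3 had the lowest RNA quality number of PL (6.5). The part of sorting day and RNA quality in these values was not tested.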

How the results depend on the processing

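With RLE scaling 3 genes were higher in PBL against PL and 2 lower in LBL against PBL. With library totals alone, 3 were higher and 17 lower in PBL against PL, 8 lower in PL against PP and 3 higher in LBL against PBL. Without the filter, 18 were lower in PBL against PL, 2 in LBL against LL, and 1 was higher in the mean of the 3 BLZ945 effects. DESeq2 gave 3 higher in PBL against PL, 16 lower in LBL against LL, and 1 higher and 4 lower in LBL against PBL, and voom 2 higher in PBL against PL. A fit of the compared groups alone gave 14 lower in PBL against PL, 12 in PBL against PBP and 3 in LBL against PBL. With an RNA quality term 19 were lower in PBL against PL, 4 higher and 13 lower in PBL against PBP and 0 lower in LBL against PBL. With PP and PL limited to sorting day 5 and the other groups kept whole, 8 were higher and 1 lower in PL against PP. PL then held only replicates 3 and 4, with RNA quality numbers of 6.5 and 8.4. Without PBP replicate 5 and PL replicate 3 together, 2 were higher in PBL against PL, 1 lower in LL against PL, 6 lower in the difference of first-LPS effects and 1 higher in the mean of the 3. The last 2 alternatives, like the mean of the 3 and the mean within sorters (0 higher, 20 lower), were chosen after seeing the data. The cause was not tested for any of these shifts.

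A sorter or a sorting day term rests on PBP replicate 5 for the PBL comparisons. With either, PBL against PL and the mean of the 3 had 0 genes called in each direction, and PBL against PBP 0 higher and 1 lower. The sorter term gave 1 higher in LBL against PBL, the day term 2 lower in LBL against LL. Signs turned with the sorter term in PBL against PL for Cox7c (-0.022), Uqcrc1 (0.14), Uqcrfs1 (0.12), Cox5a (0.23), Atp5b (0.12), Atp5a1 (0.024) and Cox7a2 (0.025). In PBL against PBP they turned for Ndufaf5 (0.10), Uqcrc1 (0.20) and Atp5a1 (0.12), and in the mean of the 3 for Atp5b (0.0043). With the day term they turned in PBL against PL for Cox7c (-0.048), Uqcrc1 (0.051), Uqcrfs1 (0.17), Cox5a (0.23), Atp5b (0.15) and Cox7a2 (0.26). In PBL against PBP the day term gave Ndufaf5 0.10, Uqcrc1 0.20 and Atp5a1 0.12, and in the mean of the 3 Atp5b 0.0051, Cox6a1 0.0088 and Cox7a2 0.063. LL against PL and LBL against PBL could not be fitted with the day term.

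No pairing by replicate number was seen: same-numbered libraries had residual correlations of -0.31 to 0.37 (median 0.013, 70 pairs) and 6 of 29 correlated best with their own number. The check does not exclude a pairing. With the replicate block 14 genes were lower in LBL against LL, 26 in PBL against PL and 3 in PL against PP, and 2 were higher in LBL against PBL.

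Leaving out 1 library gave 0 to 1 lower genes in PBP against PP, 16 to 29 lower and 1 to 2 higher in PBL against PL and 3 to 13 lower in LBL against LL. It gave 3 to 7 higher and 2 to 3 lower in PL against PP, 4 to 8 higher and 13 to 25 lower in PBL against PBP, and 0 to 2 in each direction in LBL against PBL. It gave 0 to 3 lower in the difference of first-LPS effects, and 1 to 3 higher and 45 to 56 lower in the mean of the 3. The medians of the 3 BLZ945 comparisons stayed below 0 (-0.22 to -0.13, -0.32 to -0.17 and -0.33 to -0.27).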
